A study of Mus musculus with 2 samples.

Results

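The 10 genes described here were 5 genes of actin isoforms (Actb, Actg1, Acta1, Acta2 and Actc1) and 5 contractile or adhesion genes known as targets of serum response factor, SRF (Tagln, Cnn1, Myl9, Tpm1 and Vcl). They were chosen by symbol, with no measured value in the rule, but with earlier results of these data known. All 10 were found among the 55414 genes of the matrices. Together they held 2368 UMIs (unique molecular identifiers, which mark single captured molecules), or 0.171% of the UMIs, in nuclei of the standard library. In nuclei of the in situ polyadenylated library they held 1228 UMIs, or 0.0622%.

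Both libraries came from methanol-fixed nuclei of the mouse myoblast line C2C12, run on the Chromium v3 droplet platform. In one library yeast poly(A) polymerase was added to the nuclei in a warm reaction, which lets oligo(dT) also prime RNAs that carry no poly(A) tail. In the other, the standard library, nuclei were given neither the enzyme nor the warm incubation. They were counted once wash buffer had been added, without the later wash, spin and change of buffer that the enzyme-treated nuclei went through. The effects of these differences cannot be told apart. The enzyme reaction held the RNase inhibitor SUPERase-In. In tissue sections the paper found that this inhibitor did not stop longer transcripts from degrading during the same step. RNA degradation in these nuclei was not tested. Each group had 1 library, so no test between them was possible and all intervals are exact 95% intervals that cover counting error only.

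Nuclei were barcodes with over 750 UMIs and under 5% mitochondrial UMIs in the kallisto matrix, which counts reads on transcripts. There were 1123 standard nuclei with a median of 996 UMIs and 1335 in situ polyadenylated nuclei with a median of 1088 UMIs, and 0 nucleus barcodes occurred in both libraries. Barcodes with 1 to 100 UMIs, called low-UMI barcodes below, numbered 226358 and 229964, with a median of 1 UMI in each library. They were taken to stand for free RNA, but what they hold was not tested. The 6 myoblast markers summed to 986 UMIs in standard and 603 in in situ polyadenylated nuclei. Des, which encodes the muscle intermediate filament desmin, held 636 and 360 of these, Itga7 228 and 175, and Cdh15 96 and 42. The myogenic factor Myod1 had only 13 and 15 UMIs, Myf5 9 and 6, and Pax7 4 and 5. The 6 markers of differentiating myocytes summed to 2445 and 2171 UMIs, of which Ttn held 2328 and 2035. Of the 4 smooth muscle markers, Myh11 and Myocd were at 0 in both, whereas Smtn had 96 and 67 UMIs and Lmod1 had 8 and 2, so that the list summed to 104 and 69 UMIs. The endothelial list summed to 36 and 10 UMIs, of which Pecam1 held 35 and 10. The leukocyte list summed to 10 and 1 UMIs, and the epithelial list to 2 and 2.

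Actin monomers assemble into the thin filaments of the cytoskeleton and of the sarcomere. Beta-actin (Actb) and gamma-actin (Actg1) are the cytoplasmic isoforms of nearly all cells, whereas Acta1, Actc1 and Acta2 encode the skeletal, cardiac and smooth muscle alpha-actins. SRF binds the CArG box, and its coactivators of the MRTF family are held by free actin monomers and released when actin polymerises, so that several actin genes lie downstream of a sensor of their own product.

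The 5 actin genes share most of their coding sequence, which matters for any method that assigns short reads to genes. The last 90 coding bases of each canonical transcript are shown 5′ to 3′ from the GRCm39 reference, stop codon included, with capitals marking each base that differs from Actb at the same place.
Actb: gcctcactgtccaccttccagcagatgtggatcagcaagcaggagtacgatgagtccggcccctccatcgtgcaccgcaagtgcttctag
Actg1: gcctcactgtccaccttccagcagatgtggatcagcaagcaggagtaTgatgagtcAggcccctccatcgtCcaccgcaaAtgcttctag
Acta1: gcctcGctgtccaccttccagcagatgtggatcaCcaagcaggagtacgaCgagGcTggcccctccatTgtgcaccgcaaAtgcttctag
Acta2: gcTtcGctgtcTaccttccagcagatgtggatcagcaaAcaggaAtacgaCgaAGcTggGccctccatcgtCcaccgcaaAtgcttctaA
Actc1: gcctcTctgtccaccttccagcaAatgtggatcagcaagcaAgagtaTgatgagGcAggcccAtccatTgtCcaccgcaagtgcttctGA
In this stretch Actg1 differed from Actb at 4 bases, Acta1 at 7, Actc1 at 11 and Acta2 at 13. Over the whole coding sequence Actb and Actg1 were 88.7% identical, the highest value among the 5 genes, and Actg1 was least like Acta2 and Actc1, at 81.5% each. The 3′ untranslated regions of Actb and Actg1 were 41.0% identical.

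The CArG box, the palindromic SRF element of 10 bases, was searched on both strands in RefSeq promoter windows of 300 bases (250 before and 50 from the gene start, build GRCm38.p6), which were available for 8 of the 10 genes. Of these, 5 held a box, whereas 488 of all 27025 genes (1.81%) and 535 of all 32851 windows (1.63%) did. The members were chosen as actins and known SRF targets, so a larger share among them follows in part from the choice and is not a test. Actb and Tagln were not in the promoter table. The boxes are shown in capitals with 10 bases on each side, read along the gene's strand.
Actg1: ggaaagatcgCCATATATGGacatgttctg
Acta1: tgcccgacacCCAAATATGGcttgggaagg
Actc1: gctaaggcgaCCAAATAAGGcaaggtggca
Myl9: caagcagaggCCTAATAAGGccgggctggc
Vcl: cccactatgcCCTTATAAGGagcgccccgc
On GRCm38.p6 these windows lie at chr11:120348566-120348595 on the minus strand for Actg1, chr8:123894829-123894858 on the minus strand for Acta1 and chr2:114052903-114052932 on the minus strand for Actc1. They lie at chr2:156775293-156775322 on the plus strand for Myl9 and chr14:20929161-20929190 on the plus strand for Vcl. The box began 47 bases upstream of the gene start in Actc1, 73 in Acta1, 90 in Actg1, 161 in Myl9 and 227 in Vcl. The windows of Acta2, Cnn1 and Tpm1 held none, which says only that these letters are not in this stretch, and a match says nothing of binding in these cells.

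The 10 genes covered nearly the whole range of detection. Actb lies at chr5:142888870-142892509 on the minus strand of GRCm39 and had 806 UMIs in standard nuclei and 337 in in situ polyadenylated nuclei. Actg1 (chr11:120236512-120239617, minus strand) had 784 and 291, and Tpm1 (chr9:66929870-66956953, minus strand), the alpha-tropomyosin gene whose product lies along the actin filament, had 502 and 428. Vcl (chr14:20979449-21083758, plus strand), which encodes the adhesion protein vinculin, had 182 and 118. No other member reached 50 UMIs in both sets of nuclei, the minimum set here for counting a difference, so 4 of the 10 could be counted.

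The other 6 genes were sparse. Acta2 (chr19:34217737-34232990, minus strand) had 39 UMIs in standard nuclei and 19 in in situ polyadenylated nuclei, and the myosin regulatory light chain gene Myl9 (chr2:156617084-156623579, plus strand) had 28 and 21. Tagln (chr9:45840909-45847404, minus strand), which encodes the actin-binding protein transgelin, had 11 and 5 UMIs. Skeletal alpha-actin, Acta1 (chr8:124618501-124623661, minus strand), had 10 and 7, and cardiac alpha-actin, Actc1 (chr2:113876266-113884043, minus strand), had 4 and 2. The calponin gene Cnn1 (chr9:22010512-22020926, plus strand) had 1 UMI in standard nuclei and 0 in in situ polyadenylated nuclei. A count of 0 in 1335 nuclei allows a share of nuclei with a Cnn1 UMI of up to 0.225% by the limit of 3 counts and of up to 0.276% by the exact two-sided interval.

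Levels were compared between genes as CPM (UMIs scaled to the same total in each set) per kilobase of the canonical transcript, although a 3′-end protocol does not sample a transcript in proportion to its length. In standard nuclei Actb was highest at 304 CPM per kb (283 to 325), followed by Actg1 at 258 (240 to 276) and Tpm1 at 166 (152 to 181), with intervals that did not overlap. A gap of several fold separated these from Vcl at 24.0 CPM per kb (20.6 to 27.7) and Myl9 at 14.6 (9.71 to 21.1). Acta2 followed at 10.2 (7.19 to 13.8), Tagln at 4.82 (2.40 to 8.62) and Acta1 at 4.39 (2.10 to 8.07). From Vcl to Acta1 each neighbour in the order overlapped the next. Actc1 at 0.793 (0.216 to 2.03) and Cnn1 at 0.297 (0.00752 to 1.66) were lowest and also overlapped each other.

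The order changed at the top in in situ polyadenylated nuclei. Tpm1 at 99.0 CPM per kb (89.8 to 109) and Actb at 88.8 (79.7 to 98.9) overlapped, and Actg1 at 67.0 (59.5 to 75.1) lay below both. Vcl at 10.9 (9.02 to 13.0) and Myl9 at 7.68 (4.75 to 11.7) overlapped, and the other 5 genes were between 0 and 3.45 CPM per kb.

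**Figure D1:**
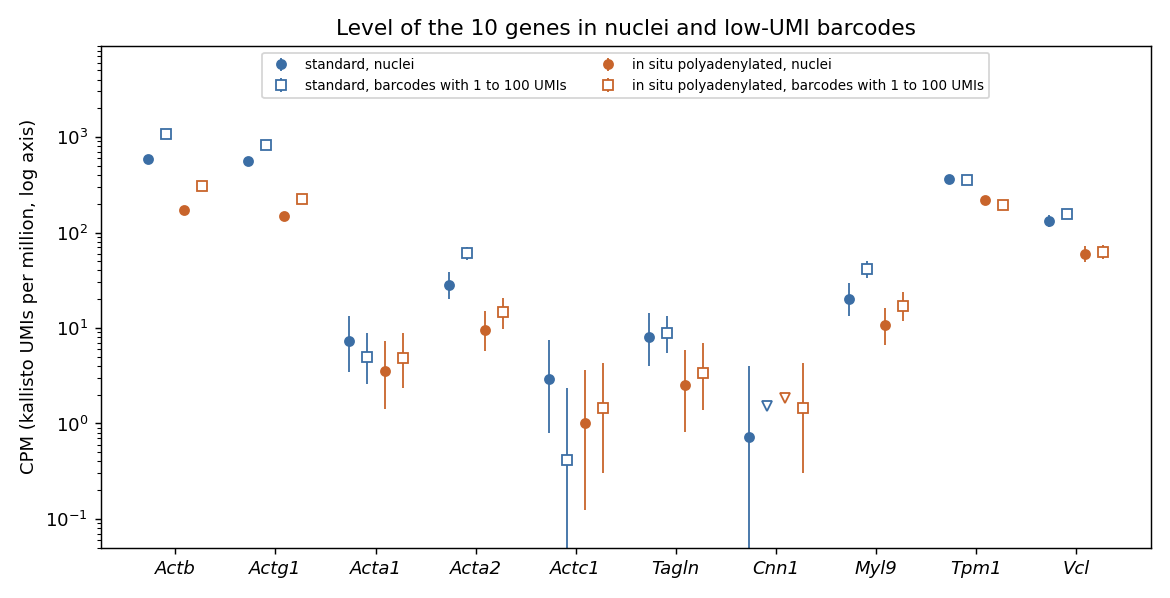
CPM (log axis) of the 10 genes from kallisto UMIs in nuclei (filled circles) and low-UMI barcodes (open squares) of the standard (blue) and in situ polyadenylated (orange) libraries, with exact 95% Poisson intervals. Open triangles mark the upper bound where a gene had 0 UMIs, and interval ends under 0.05 CPM are drawn at the axis floor. Actb and Actg1 were higher in low-UMI barcodes than in nuclei of the same library, whereas Tpm1 and Vcl were at nearly the same level in both.

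The share of nuclei with at least 1 UMI broadly followed the levels. In standard nuclei Actg1 was found in 40.3% (37.5 to 43.3), Actb in 39.0% (36.1 to 41.9), Tpm1 in 32.9% and Vcl in 14.5% of nuclei. In in situ polyadenylated nuclei Tpm1 came first at 24.9% (22.6 to 27.3), ahead of Actb at 18.5% (16.5 to 20.7), Actg1 at 14.9% (13.0 to 16.9) and Vcl at 7.79%. After each nucleus was thinned to 750 UMIs, which left 1120 standard nuclei and all 1335 of the others, Actb was in 29.9% and 11.9%, Actg1 in 30.8% and 9.74%, Tpm1 in 23.8% and 16.0%, and Vcl in 9.82% and 3.90%. At equal depth each of the 4 was therefore found in fewer in situ polyadenylated nuclei. The median protein-coding gene also had lower CPM there, at a log2 ratio of -1.19 over 2117 genes. Thinning does not correct for this, so the lower shares do not set these 4 genes apart. The other 6 genes were in 0.0890% to 3.38% of standard nuclei. No cell type that should lack Actb, Actg1, Tpm1 or Vcl was identified among these nuclei. Levels in low-UMI barcodes are compared below as a stand-in for free RNA, which was not tested.

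At equal depth Tpm1 and Vcl had a variance over mean near that of counting alone, at 1.06 and 1.06 in standard nuclei. In in situ polyadenylated nuclei the values were 1.08 and 1.03. Actb had a variance over mean of 1.32 in standard nuclei and 1.11 in in situ polyadenylated nuclei, and Actg1 had 1.17 and 1.30. Actg1 in both libraries and Actb in the standard library were above Tpm1 and Vcl, whereas Actb in the in situ polyadenylated library was close to Tpm1. At equal relative spread this measure rises with the mean. The means per nucleus were 0.418 for Actb, 0.411 for Actg1, 0.283 for Tpm1 and 0.106 for Vcl in standard nuclei. In in situ polyadenylated nuclei they were 0.135, 0.119, 0.178 and 0.0404. The values therefore do not rank the genes by spread, and a value near that of counting alone does not show an even spread. The highest value in a nucleus before thinning was 10.8 UMIs for Actb in the standard library and 9 UMIs for Actg1 in the in situ polyadenylated library.

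Actb and Actg1 held nearly equal shares of the actin UMIs by kallisto and far from equal shares by STAR, which aligns the same reads to the genome. In standard nuclei Actb made up 49.1% (46.6 to 51.5) and Actg1 47.7% (45.3 to 50.2) of the UMIs of the 5 actin genes by kallisto. By STAR in the same 1123 nuclei they made up 78.7% (77.2 to 80.1) and 12.2% (11.1 to 13.5). In in situ polyadenylated nuclei the shares were 51.4% and 44.4% by kallisto, and 69.9% (67.6 to 72.2) and 19.2% (17.3 to 21.3) by STAR in the 1328 of these nuclei listed in the STAR matrix. Acta2 rose in share from 2.37% to 7.16% in standard nuclei and from 2.90% to 6.75% in in situ polyadenylated nuclei, and Acta1 from 0.609% to 1.39% and from 1.07% to 3.87%. The choice of counting route moved the isoform balance more than the library did.

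**Figure D2:**
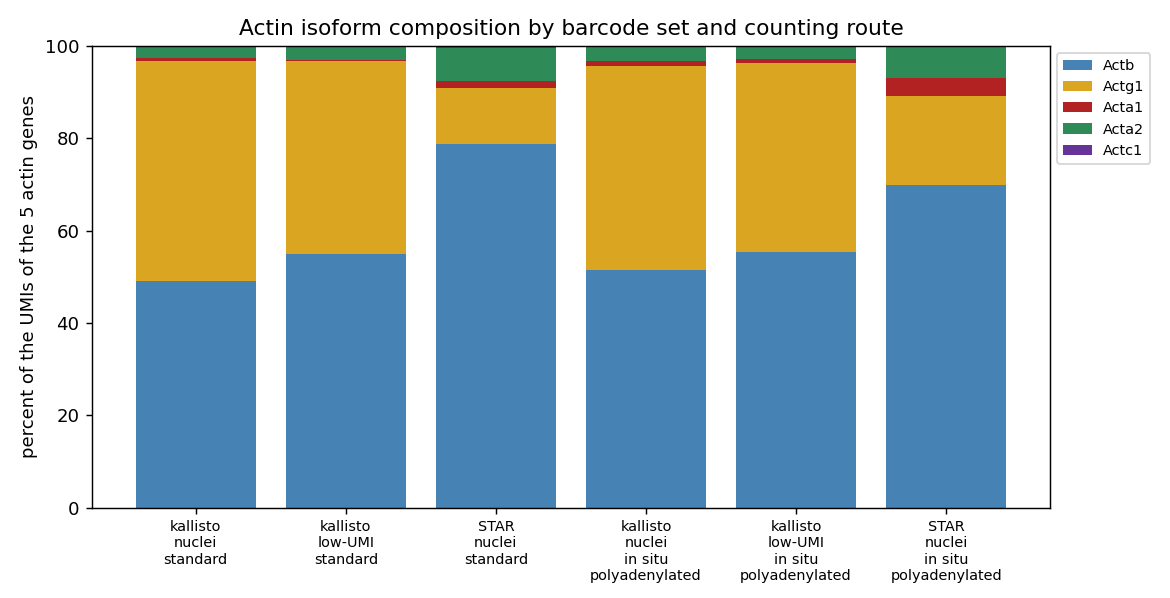
Percent of the summed UMIs of the 5 actin genes held by each gene, as stacked bars, for kallisto counts in nuclei and in low-UMI barcodes and for STAR counts in nuclei of both libraries. The Actg1 bar falls from 47.7% with kallisto to 12.2% with STAR in standard nuclei and from 44.4% to 19.2% in in situ polyadenylated nuclei.

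STAR gave more UMIs than kallisto for the median gene, with a protein-coding ratio of 2.24 on the log2 scale in the standard library (3610 genes with at least 50 UMIs in both matrices) and 1.96 in the in situ polyadenylated library (2138 genes). Actg1 was the exception among the members. It had 784 UMIs by kallisto and 371 by STAR in standard nuclei, and 291 and 293 in in situ polyadenylated nuclei. Relative to the median gene this was a log2 ratio of -3.32 and -1.95, at percentiles 0.0554 and 0.982 of protein-coding genes. Of the 4 members with enough UMIs, Actg1 was 2-fold or more below the median in each library and 0 were 2-fold or more above it. Among all genes tested, 6.45% were that far below and 15.5% that far above in the standard library, and 5% and 9.17% in the in situ polyadenylated library.

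The other members gained UMIs with STAR. Actb went from 806 to 2383 UMIs in standard nuclei and from 337 to 1067 in in situ polyadenylated nuclei, which is 2.96 and 3.17 times the kallisto value. Tpm1 reached 1780 and 1045 UMIs, or 3.55 and 2.45 times. Vcl, the member with the largest share of intron in its gene body (91.8%, against 3.19% for Actg1, the smallest), reached 1665 and 621 UMIs, or 9.15 and 5.26 times. Acta2 reached 217 and 103 UMIs, Myl9 121 and 62, Acta1 42 and 59, and Tagln 33 and 11. The alignment settings let STAR keep reads with several genomic matches, and how such reads and intronic reads entered the counts of these nuclei was not found in the sources used here.

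The sequence of Actg1 stood apart from that of the other members in how much of it recurs. Of its transcript's 31-mers, the word length of the kallisto index, 86.4% were also found elsewhere in the GRCm39 genome, and in the last 500 nt, where a 3′-end protocol reads, the share was 100%. Actb had 39.8% and 36.0%, and the other 8 genes had at most 3.89% over the transcript and at most 2.13% in the last 500 nt. Most of this sequence was not shared among the actins themselves. Other actin transcripts held 5.30% of the Actg1 31-mers and 7.20% of those of Actb, whereas transcripts of any other gene held 84.9% and 35.2%, with 22 and 27 pseudogenes among the genes that shared them. These transcripts were those of GENCODE M39, whereas the authors' kallisto index was built on M28, in which sharing was not measured. Both levels and ratios of Actg1, and to a lesser degree of Actb, are therefore uncertain beyond their counting intervals. Entries that were not whole numbers, where kallisto split a UMI between genes, held 4.48% of the Actb UMIs and 2.96% of the Actg1 UMIs of standard nuclei.

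**Figure D3:**
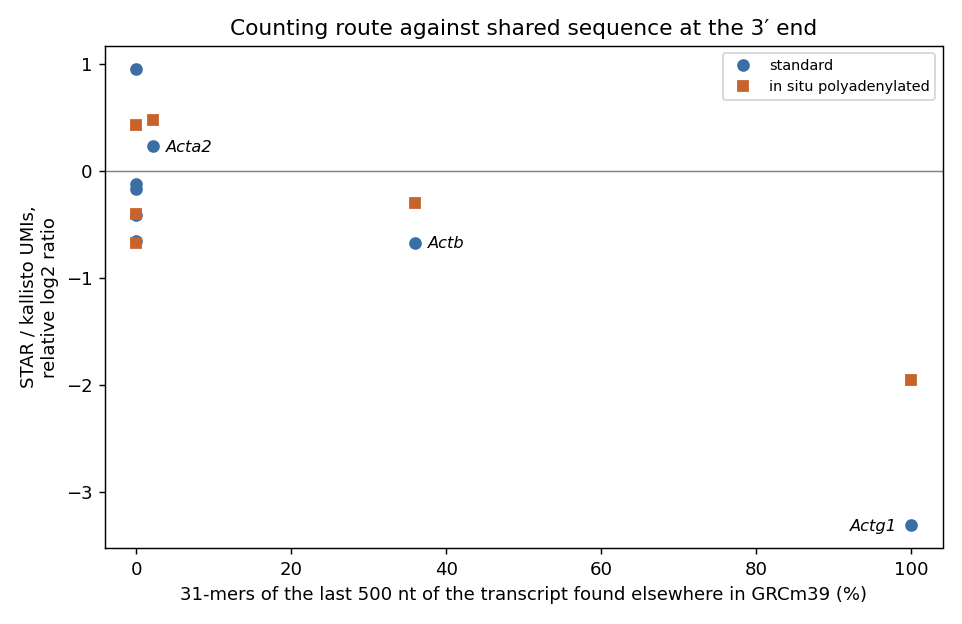
Percent of the 31-mers in the last 500 nt of each member's canonical transcript that occur elsewhere in the genome (horizontal) against the STAR over kallisto log2 ratio relative to the median protein-coding gene (vertical), for members with at least 10 kallisto UMIs, in the standard (circles) and in situ polyadenylated (squares) libraries. Actg1, at 100%, lies at -3.32 and -1.95, Actb at 36.0% lies at -0.67 and -0.30, and the members near 0% lie on both sides of 0.

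All members but Actb are overlapped by a gene on the opposite strand, among them Stambpl1 over Acta2, Pcsk7 over Tagln, Elof1 over Cnn1 and Ap3m1 over Vcl. The kallisto counts were strand-aware. The sources used here name no strand setting for the STAR counts, so reads of these partners could not be told apart there.

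The next comparison asked how the members differed between the libraries. CPM of protein-coding genes was lower overall after in situ polyadenylation, with a median log2 ratio of -1.19 over the 2117 genes that reached 50 UMIs in both libraries, so differences are given relative to that median. By kallisto the 2 cytoplasmic actins were lower than the median gene. Actb went from 583 CPM in standard nuclei to 170 CPM, a relative log2 ratio of -0.58 (-0.77 to -0.39) at percentile 7.94 of the genes tested. Actg1 went from 567 to 147 CPM, a relative log2 ratio of -0.75 (-0.95 to -0.56) at percentile 4.06.

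Tpm1 went the other way relative to the median, from 363 to 217 CPM, a relative log2 ratio of 0.45 (0.26 to 0.64) at percentile 84.2, although its CPM itself fell by 0.74 on the log2 scale. Vcl lay close to the median gene, from 132 to 59.8 CPM, with a relative log2 ratio of 0.05 (-0.29 to 0.40). The intervals of the sparse genes all included 0, with 0.26 (-0.63 to 1.13) for Myl9, -0.36 (-1.23 to 0.47) for Acta2, -0.46 (-2.34 to 1.18) for Tagln, 0.16 (-1.47 to 1.71) for Acta1 and -0.32 (-3.79 to 2.48) for Actc1. At this depth no difference of these 5 genes from the median gene was detectable, and no ratio was taken for Cnn1.

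Of the 4 members tested, 0 were 2-fold or more above and 0 were 2-fold or more below the median, against 1.61% and 1.37% of all genes tested. Summed over the 10 genes, the relative log2 ratio was -0.27 (-0.37 to -0.17). The 5 actins together gave -0.65 (-0.78 to -0.52), and the 8 genes other than Actb and Actg1 gave 0.31 (0.15 to 0.46). In low-UMI barcodes the relative log2 ratios between libraries were -0.73 (-0.85 to -0.60) for Actb and -0.77 (-0.92 to -0.62) for Actg1, against a median of -1.11 over 2789 genes, with intervals that overlapped those in nuclei. Tpm1 had a smaller value there, 0.21 (0.03 to 0.38), and Vcl had -0.20 (-0.50 to 0.09). For Acta2 the value in low-UMI barcodes was -0.95 (-1.57 to -0.37), which excluded 0, where the value in nuclei did not.

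With STAR counts of the same barcodes the difference of Actg1 changed direction. Actg1 had 293 UMIs in in situ polyadenylated nuclei and 371 in standard nuclei, which is a relative log2 ratio of 0.69 (0.47 to 0.92) against a median of -1.92 over 7752 genes. Actb shrank to -0.13 (-0.23 to -0.02), and Vcl moved to -0.39 (-0.52 to -0.26). Tpm1 stayed above the median gene by both routes, at 0.27 (0.15 to 0.38) with STAR, whereas Actb lay below it by both. As a share of protein-coding UMIs, the kallisto log2 ratio of Tpm1 was smaller, at 0.19 (-0.00 to 0.38), with an interval that included 0. Acta1 had 59 UMIs in in situ polyadenylated nuclei and 42 in standard nuclei, a relative log2 ratio of 1.52 (0.93 to 2.13). The 42 UMIs are under the minimum of 50 set for counting a difference. The interval also ignores that Acta1 UMIs were concentrated in few nuclei by kallisto. With kallisto counts the Acta1 interval included 0, at 0.16 in nuclei and -0.59 (-1.81 to 0.47) in the barcodes deposited with STAR. The lncRNA Gm29773 overlaps Acta1 on the opposite strand, and its part in the STAR value was not tested. Acta2 (-0.04) and Myl9 (0.07) lay near 0 with intervals that included it. The sum of the 10 genes was 0.01 (-0.05 to 0.07) with STAR counts of the same barcodes and -0.07 (-0.11 to -0.03) with barcodes over 750 STAR UMIs, where kallisto had -0.27.

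**Figure D4:**
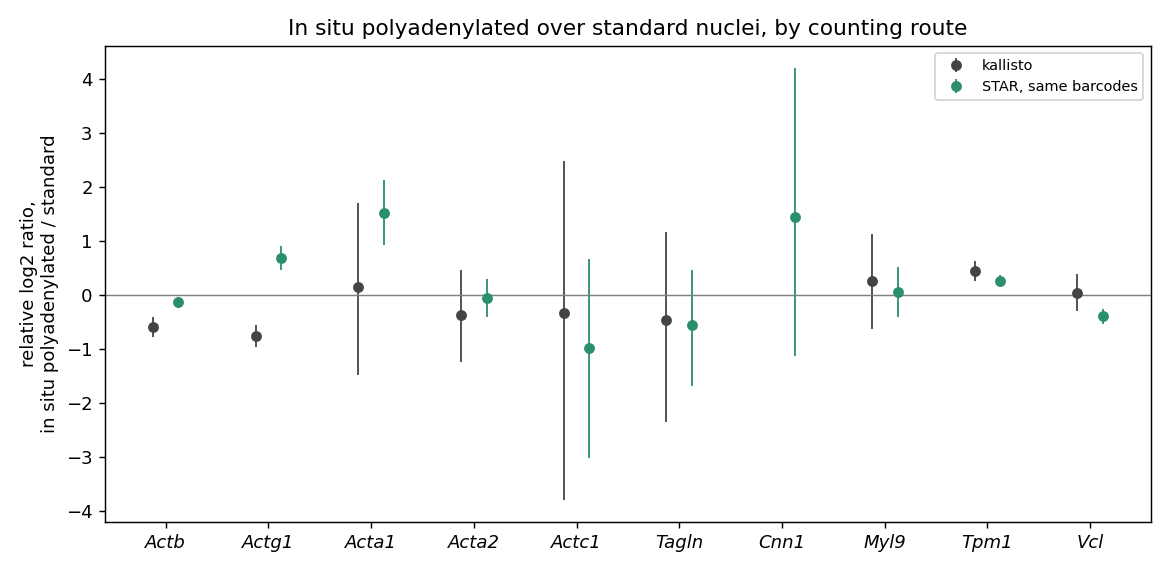
Log2 ratio of in situ polyadenylated over standard nuclei for each gene, relative to the median protein-coding gene, from kallisto (black) and from STAR counts of the same barcodes (green), with exact conditional 95% intervals. Cnn1 has no kallisto value. Actg1 lies at -0.75 with kallisto and 0.69 with STAR, and Tpm1 is above 0 with both.

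The members were then compared between low-UMI barcodes and nuclei of the same library. Actb was higher in low-UMI barcodes in both libraries. It had 1086 CPM in low-UMI barcodes and 583 CPM in nuclei of the standard library, a log2 ratio relative to the median protein-coding gene (0.06, 3658 genes) of 0.84 (0.72 to 0.95). In the in situ polyadenylated library it had 305 and 170 CPM, a relative log2 ratio of 0.75 (0.56 to 0.95) against a median of 0.09 over 2072 genes. Actg1 was also higher in low-UMI barcodes, with relative log2 ratios of 0.48 (0.36 to 0.60) and 0.52 (0.31 to 0.74). The size depended on the range of low-UMI barcodes in the in situ polyadenylated library, where Actb had 1.99 with barcodes of 1 to 10 UMIs and 0.44 with barcodes of 11 to 100 UMIs.

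Acta2 and Myl9 were of similar size to Actb in the standard library. Acta2 had 60.6 CPM in low-UMI barcodes and 28.4 CPM in nuclei, a relative log2 ratio of 1.04 (0.52 to 1.59), and Myl9 had 41.3 and 20.2 CPM, a ratio of 0.97 (0.35 to 1.63). In the in situ polyadenylated library their ratios were 0.51 (-0.36 to 1.42) and 0.59 (-0.23 to 1.45), which did not exclude 0. Tpm1 and Vcl were distributed like the median gene or slightly towards nuclei. Tpm1 had relative log2 ratios of -0.08 (-0.24 to 0.08) in the standard library and -0.26 (-0.46 to -0.06) in the in situ polyadenylated library, and Vcl had 0.17 (-0.09 to 0.44) and -0.02 (-0.39 to 0.36). The Tpm1 value was not stable, at 0.38 in the in situ polyadenylated library with barcodes of 1 to 10 UMIs and 0.34 in the standard library with nuclei over 1500 UMIs. The intervals of Tagln and Acta1 included 0 in both libraries.

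Of the 4 members tested, 0 were 2-fold or more above or below the median in either library. Among all genes tested 0.765% were that far above and 1.26% that far below in the standard library, and 1.35% and 0.965% in the in situ polyadenylated library. Summed over the 10 genes, the relative log2 ratio was 0.51 (0.44 to 0.58) in the standard library and 0.32 (0.22 to 0.43) in the in situ polyadenylated library, where it was 1.16 with barcodes of 1 to 10 UMIs and 0.14 with barcodes of 11 to 100 UMIs. Without Actb and Actg1 these sums were 0.10 (-0.02 to 0.23) and -0.12 (-0.28 to 0.05). Tpm1 and Vcl held most of the UMIs of the remaining 8 genes, and Acta2 and Myl9 were themselves higher in low-UMI barcodes of the standard library. Actb made up 55.0% (53.5 to 56.4) of actin UMIs in low-UMI barcodes and 49.1% (46.6 to 51.5) in nuclei of the standard library. In the in situ polyadenylated library it made up 55.4% (52.4 to 58.3) and 51.4% (47.5 to 55.3), with intervals that overlapped.

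**Figure D5:**
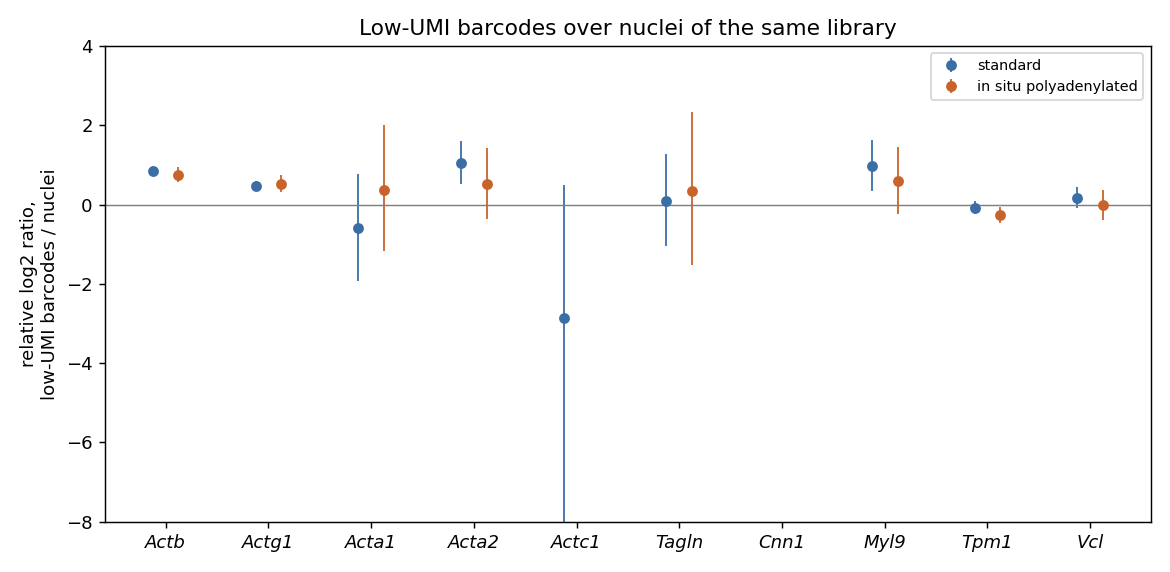
Each gene's log2 ratio between low-UMI barcodes and nuclei of the same library, relative to the median protein-coding gene, in the standard (blue) and in situ polyadenylated (orange) libraries, with exact conditional 95% intervals. Actb and Actg1 lie above 0 in both libraries and Tpm1 and Vcl lie near it, whereas the lower end of the Actc1 interval, from 1 and 4 UMIs, runs below the axis and Cnn1 has no value.

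Skeletal alpha-actin was concentrated in few nuclei. In the standard library the 10 Acta1 UMIs fell in 5 nuclei, with 5 in the highest of them, and in the in situ polyadenylated library the 7 UMIs fell in 5 nuclei, with 3 in the highest. These nuclei were also rich in markers of differentiating myocytes (Myog, Mymk, Mymx, Myh3, Tnnt1 and the giant sarcomeric protein gene Ttn). The 6 markers summed to 37975 CPM in the 5 standard nuclei with Acta1 and to 1608 CPM in the rest, and to 30696 and 970 CPM in the in situ polyadenylated library. Most of these UMIs were Ttn, and without it the sums were 3945 and 67.5 CPM in the standard library and 1751 and 61.4 CPM in the in situ polyadenylated library. In the nuclei with Acta1 the sums without Ttn rested on only 24 UMIs in the standard library and 15 in the other.

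The direction was the same in the STAR matrix, which holds more barcodes. It counts the same reads and includes all 1123 standard nuclei and 1328 of the 1335 in situ polyadenylated nuclei. It is therefore not separate support. Of its 8474 standard barcodes, 95 held the 136 Acta1 UMIs, and the markers without Ttn summed to 894 CPM in these and 29.5 CPM in the rest. Of its 3791 in situ polyadenylated barcodes, 67 held the 85 Acta1 UMIs, with 317 and 10.1 CPM. Barcodes with Actc1 were alike, with marker sums including Ttn of 10182 CPM in the 24 standard barcodes that held it and 890 CPM in the rest. Tagln showed no such excess, at 836 and 944 CPM, and Myl9 (1467 and 904 CPM) and Acta2 (2171 and 800 CPM) lay between. Barcodes with a UMI of these genes were deeper than the rest (medians for Acta1 of 2400 and 1967 STAR UMIs in the standard library and of 6431 and 3971 in the in situ polyadenylated library), the marker values are scaled to each set's total, and the part of depth in the pattern was not tested.

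The SRF gene itself and its coactivators were measured on the same scale. Mrtfa, which encodes a coactivator that senses actin monomers, was the most abundant, with 271 UMIs in standard nuclei and 125 in in situ polyadenylated nuclei, a relative log2 ratio of -0.44 (-0.76 to -0.13). Its relative Mrtfb had 44 and 35 UMIs, Srf 13 and 10, and Myocd, the coactivator of heart and smooth muscle, 0 in both. By kallisto the Srf ratio was 0.30 (-1.05 to 1.60), which does not set it apart from the median gene.

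Srf differed between routes in the in situ polyadenylated library. STAR gave it 191 UMIs in these nuclei and 43 in standard nuclei, a relative log2 ratio of 3.18 (2.70 to 3.70), where kallisto had 10 and 13. The annotation places the lncRNA Gm65094 on the opposite strand and the microRNA gene Mir6976 on the same strand of the Srf locus, and their part in the STAR value was not tested. Mrtfa was 2-fold or more above the median in the STAR over kallisto ratio in both libraries, with 3373 and 1303 STAR UMIs and 96.4% of its gene body in introns. Among all genes tested 15.5% in the standard library and 9.17% in the other were that far above.

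Other contractile and adhesion genes formed a list of 34, chosen, like the members, with earlier results of these data known. Of these, 18 had enough UMIs for the comparison of libraries, and 13 lay above the median gene. Of the 18, 0 were 2-fold or more above or below it, against 1.61% above and 1.37% below among all genes tested. Their median relative log2 ratio was 0.29, with a range from -0.44 to 0.88, where the median over all genes tested is 0 by construction. The 3 most abundant were Cald1, which encodes the actin-binding protein caldesmon and had 1870 and 1254 UMIs (0.10, -0.00 to 0.21), the nonmuscle myosin heavy chain gene Myh9 with 1276 and 1471 UMIs (0.88, 0.77 to 0.99) and the filamin gene Flna with 1030 and 823 UMIs (0.35, 0.22 to 0.49). Myh9 and Flna, like Tpm1, were thus above the median gene after in situ polyadenylation, whereas the cytoplasmic actins were below it by kallisto.

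Between low-UMI barcodes and nuclei the list of contractile genes had medians of 0.11 over 21 genes in the standard library and -0.13 over 18 genes in the in situ polyadenylated library. There 1 gene was called, Ankrd1, a muscle ankyrin repeat gene that was named after its value was seen. It had 378 UMIs in low-UMI barcodes and 686 in nuclei and a relative log2 ratio of -1.01 (-1.19 to -0.82). Among all genes tested 0.965% were 2-fold or more below in that library. In the STAR over kallisto ratio 2 of 21 in the standard library (Actn1 and Pdlim5, both above) and 0 of 18 in the in situ polyadenylated library were called, so the share of the list was no larger than among all genes tested (15.5% above in the standard library and 9.17% above in the other).

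Genes that handle actin monomers and nucleate filaments (14 in the list) were compared in the same way. This list too was chosen with earlier results of these data known, so its counts are a description only. In low-UMI barcodes over nuclei of the standard library 11 were tested, of which 9 lay above the median gene, and their median was 0.46. Of the 11, 2 were 2-fold or more above the median gene, against 0.765% of all genes tested. These were Pfn1 and Tmsb4x, which encode the monomer-binding proteins profilin and thymosin beta-4. In the in situ polyadenylated library 4 were tested, of which 3 lay above the median gene, and the median was 0.76. There Tmsb10, the gene of another beta-thymosin, was called above, against 1.35% of all genes tested. Pfn1 had 480 UMIs in low-UMI barcodes and 131 in nuclei of the standard library, a relative log2 ratio of 1.02 (0.74 to 1.31), and 105 and 53 in the other, a ratio of 0.84 (0.35 to 1.35). Tmsb10 had 305 and 131 UMIs, a ratio of 0.37 (0.07 to 0.67), and 183 and 54, a ratio of 1.61 (1.17 to 2.08). Diaph1, a formin gene and the most abundant of the list in standard nuclei with 148 UMIs, had ratios of -0.09 (-0.38 to 0.22) and -0.34 (-0.73 to 0.05).

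Between libraries the 4 tested genes of monomer handling (Pfn1, Cfl1, Tmsb10 and Diaph1) had a median of -0.57 and 0 calls in either direction. Among all genes tested 1.61% were 2-fold or more above and 1.37% below. In the STAR over kallisto ratio of the standard library 2 of 11 were 2-fold or more above (Actr2 and Capzb) and 2 below (Cfl1 and Tmsb10), against 15.5% above and 6.45% below among all genes tested. In the in situ polyadenylated library 0 of 4 were called, against 9.17% above and 5% below among all genes tested.

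The 5 protein-coding genes nearest to Actb over the 5 relative log2 values (libraries, low-UMI over nuclei in each library and STAR over kallisto in each library) were sought among 2006 genes with at least 50 UMIs in every set. They were Eif4a1, which encodes a translation initiation helicase, at a distance of 0.32, Ppp4c, a phosphatase catalytic subunit, at 0.33, the myosin light chain gene Myl6 at 0.38, the calreticulin gene Calr at 0.38 and Eif2b2 at 0.44. Myl6 had values of -0.44 between libraries, 0.71 and 0.74 in the low-UMI comparison and -0.44 and -0.06 between routes, where Actb had -0.58, 0.84, 0.75, -0.67 and -0.30. Among the members Tpm1 lay at a distance of 1.77, Vcl at 2.15 and Actg1 at 3.15, the last mainly through its STAR over kallisto values.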

How the data were processed

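Single-nucleus libraries of C2C12 cells were analysed from the deposited matrices, with 6 files per library. According to the labels and the study's methods, the authors trimmed reads with cutadapt 3.4. They quantified them with kallisto 0.48.0 and bustools 0.41.0 on GENCODE M28 transcripts, or aligned them to GRCm39 with STAR 2.7.10a. The kallisto values deposited by the authors are estimated counts of UMIs for every barcode without normalization, and 2.65% (standard) and 1.10% (in situ polyadenylated) of entries were not whole. The STAR values as deposited are whole UMI counts without normalization for 8474 and 3791 barcodes, chosen in a way the sources used here do not state.

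The kallisto matrices held 10593453 UMIs over 277095 barcodes (standard) and 6761140 UMIs over 445253 barcodes (in situ polyadenylated). Nuclei were kept with over 750 UMIs and under 5% mitochondrial UMIs, and doublets were not removed. UMIs were summed per gene and set, rounded, and scaled to CPM. Log2 ratios of CPM carry exact conditional Poisson intervals and were centred on the median over protein-coding genes that reached 50 UMIs in both sets. A 2-fold difference was the size counted. No ratio was taken where both sets had 3 UMIs or fewer. Shares carry Clopper-Pearson intervals. The 2 libraries shared 50944 of all barcodes.

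Of 55414 genes, 54749 matched GENCODE M39 of the same build, which gave coordinates, canonical transcripts and overlapping genes. Promoter windows were from RefSeq on GRCm38.p6. Scripts used Python 3.11.15, numpy 2.4.6, scipy 1.17.1, pandas 2.3.3 and Biopython 1.88, and the ratio code was tested on simulated data. The members and lists were chosen with earlier results of these data known. Named were the 10 members, SRF and its coactivators, the 3 most abundant genes of each list and the 5 genes nearest to Actb. Other genes were named after their values were seen. Alternatives changed the nucleus and gene minima, the scaling, the matrix, the low-UMI range and the thinning depth. Leaving out Actg1 from the sums was chosen after seeing the data.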

Additional observations from a re-analysis of the deposited data

Results flagged for a closer look

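The sparse genes Cnn1 and Myocd had UMIs in data outside the main measurement, the STAR matrix of all deposited barcodes. Cnn1, at 1 and 0 kallisto UMIs in nuclei, had 16 STAR UMIs in the standard library and 6 in the in situ polyadenylated library. Myocd, at 0 in both sets of nuclei by kallisto, had 67 and 24 STAR UMIs, with 92.4% of its gene body in introns, and the part of intronic reads was not tested.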

How the results depend on the processing

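With 1 library per group there were no replicates to leave out, and depth limited 6 of the 10 genes. No paired analysis was possible because the groups share a single replicate number, that of their only library. For the sums of the 10 genes 24 alternative values between libraries or between low-UMI barcodes and nuclei stayed within the counting interval of the value reported, 14 moved outside it and 3 turned in direction. Values without the mitochondrial limit equalled those reported and are counted among those that stayed, so they tested nothing. The directions that turned were those of the sum between libraries without Actb and Actg1 (0.31) and with STAR counts of the same barcodes (0.013), of the sum of low-UMI barcodes over nuclei in the in situ polyadenylated library without Actb and Actg1 (-0.12), of Actg1 between libraries with STAR counts of the same barcodes (0.69) or of barcodes over 750 STAR UMIs (0.67), of Tpm1 between libraries as plain CPM (-0.74, where every gene shifts by the same -1.19), and of Tpm1 in low-UMI barcodes over nuclei of the in situ polyadenylated library counted from barcodes under 11 UMIs (0.38). The causes were not tested.

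The sum between libraries (-0.27) moved to -1.46 as plain CPM, -0.53 as a share of protein-coding UMIs, -0.41 with a median over genes of at least 200 UMIs, -0.078 without Actg1 and -0.071 with barcodes over 750 STAR UMIs. The sum of low-UMI barcodes over nuclei in the standard library (0.51) moved to 0.59 with nuclei over 1500 UMIs, 0.67 with the median over genes of at least 200 UMIs, 0.10 without Actb and Actg1 and 0.39 with barcodes of 1 to 10 UMIs. The same sum in the other library (0.32) moved to 0.44, 0.50 and, with a gene minimum of 20, 0.20, and to 1.16 and 0.14 with barcodes of 1 to 10 and of 11 to 100 UMIs. The STAR over kallisto sum was -0.75 in the standard library and -0.55 in the in situ polyadenylated library. It moved to -0.93 and -0.68 over the barcodes deposited with STAR, -0.56 and -0.32 over nuclei above 1500 UMIs, 1.49 and 1.41 without scaling, 0.083 and -0.29 without Actb and Actg1, and -0.25 and -0.29 without Actg1. For single genes in these comparisons 267 alternative values stayed within the interval, 29 moved and 4 turned, a turn being counted only where the interval of the value reported excluded 0. The values that stayed again include those without the mitochondrial limit. They also include sparse genes with wide intervals that are hard to leave, such as Actc1 between libraries (-3.79 to 2.48). A count of 0 in 1 of 2 sets was replaced by 3 UMIs. Among values near 0, Vcl between libraries (0.05) was -0.39 with STAR counts of the same barcodes, and Tpm1 in low-UMI barcodes over nuclei of the standard library (-0.08) was 0.34 with nuclei over 1500 UMIs. Thinning to 500 UMIs in place of 750 moved 12 shares of nuclei outside their intervals and left 8 within.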
